A study of Mus musculus with 2 samples.

Results

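Delayed rectifier and M-type potassium channels are described here by 8 of the 32285 genes in the deposited tables, taken by symbol: Kcna1, Kcna2, Kcna4 and Kcna6 of the Kv1 family, Kcnb2 of the Kv2 family, Kcnc4 of the Kv3 family, and Kcnq3 and Kcnq5 of the Kv7 family. All 8 symbols were found in both libraries. The libraries were single-cell 3′ libraries of mouse dorsal root ganglia of all axial levels at postnatal day 4. One came from Ptges3 flox/flox mice (called flox) and one from Dhh CRE+, Ptges3 flox/flox mice (called cKO), so both carried the floxed Ptges3 alleles and the cKO mice also carried the Cre. Ptges3 encodes the cytosolic prostaglandin E synthase (p23). Dhh encodes desert hedgehog, a signal of the Schwann cell lineage, and its promoter drove the Cre. The title asks about prostaglandin E2 secreted by the glia of these ganglia and how readily their neurons fire, and voltage-gated potassium channels are among the genes that set excitability.

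With 1 library per genotype there was no replicate, so no p-value is given. The 95% intervals, exact Poisson for levels, Clopper-Pearson for shares of cells and conditional binomial for ratios, cover counting error only. The spread between animals is unknown, and genotype and library cannot be told apart.

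Voltage-gated potassium channels are tetramers that open when the membrane depolarizes and let potassium out of the cell. Delayed rectifiers of the Kv1 to Kv3 families repolarize the action potential. Kv1.1 and Kv1.2 (Kcna1 and Kcna2) sit beside the node of Ranvier in myelinated axons and restrain repetitive firing, and Kv1.4 (Kcna4) inactivates fast. Kv7 channels, built from KCNQ subunits, carry the M-current, a slow current active near rest that opposes repetitive firing and is closed by many G protein-coupled receptors.

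The stretch of coding sequence around the selectivity filter encodes the part of the pore that selects potassium, which all these channels share, so it is shown for the 6 genes of the Kv1 to Kv3 families. Each line holds 63 bases of the transcript, 5′ to 3′, read from the GENCODE vM21 transcripts (build GRCm38), with the 15 bases of the filter codons in capitals.
Kcna1: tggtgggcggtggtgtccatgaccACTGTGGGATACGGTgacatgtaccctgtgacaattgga
Kcna2: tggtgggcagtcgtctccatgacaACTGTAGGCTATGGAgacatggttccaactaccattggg
Kcna4: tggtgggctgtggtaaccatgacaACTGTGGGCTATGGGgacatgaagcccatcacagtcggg
Kcna6: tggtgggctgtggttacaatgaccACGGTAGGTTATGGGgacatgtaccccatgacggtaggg
Kcnb2: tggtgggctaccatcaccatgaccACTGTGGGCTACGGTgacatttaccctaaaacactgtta
Kcnc4: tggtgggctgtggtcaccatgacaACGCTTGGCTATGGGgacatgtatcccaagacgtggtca

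The 63 bases lie in 1 coding exon in each of these 6 genes. Exon numbers are those of the 1 transcript read per gene. They are chr6:126642204-126642266 on the minus strand in exon 2 of 2 of Kcna1 (ENSMUSG00000047976), chr3:107105200-107105262 on the plus strand in exon 3 of 3 of Kcna2 (ENSMUSG00000040724) and chr2:107296471-107296533 on the plus strand in exon 2 of 2 of Kcna4 (ENSMUSG00000042604). The others are chr6:126738623-126738685 on the minus strand in the 1 exon of the transcript read for Kcna6 (ENSMUSG00000038077), chr1:15710022-15710084 on the plus strand in exon 2 of 2 of Kcnb2 (ENSMUSG00000092083) and chr3:107447775-107447837 on the minus strand in exon 2 of 4 of Kcnc4 (ENSMUSG00000027895). Identity over the 63 bases was 71.4 to 82.5% within the 6 pairs of Kv1 genes (median 76.2%). Pairs across families reached into that range, with 77.8% between Kcna6 and Kcnc4 and 74.6% between Kcna1 and Kcnb2, so the stretch does not set the families apart. Kcnq3 has the identifier ENSMUSG00000056258 and Kcnq5 ENSMUSG00000028033. The 3′ libraries count the ends of the transcripts, not these bases.

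Cells were gated on markers that include none of the 8 channel genes. After filtering, 8107 flox and 7866 cKO cells remained, with medians of 6886 and 4319.5 UMIs per cell. The neuron gate held 1532 flox and 3121 cKO cells, and its depth differed widely, with medians of 46902.5 and 9035 UMIs per neuron. The myelinating Schwann gate held 1503 and 514 cells (7613 and 4385.5 UMIs), the immature Schwann lineage gate 1229 and 1015, and the satellite glia gate 302 and 431. The 2 libraries shared 23 cell barcodes. Ptges3 was lower in cKO Schwann cells: 217 against 104 UMIs per 1000000 UMIs of the gate (CPM) in myelinating Schwann cells, a log2 ratio of cKO over flox of -1.06 (-1.25 to -0.87), and 272 against 132 CPM in the immature lineage. In satellite glia it was 207 and 137 CPM, and in neurons, which were not the target, 276 and 393 CPM. Which exon the floxed alleles delete is unknown here, so 3′ UMIs check the labels only in part. Dhh itself was read at 332 (flox) and 338 (cKO) CPM in myelinating Schwann cells and at 58.9 and 54.1 CPM in neurons.

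Neurons of at least 5000 UMIs were assigned to 8 subtype gates, 1083 flox and 1456 cKO cells in all. Low-threshold mechanoreceptor-like neurons with Ntrk2 or Ntrk3 and neurofilament (called A-LTMR-like, 90 and 159 cells) held Nefh at 1228 and 1186 CPM. Proprioceptor-like neurons (24 and 25) held Pvalb at 4518 and 3269 CPM. The others were Calca neurons with neurofilament (79 and 161), Calca and Tac1 neurons (170 and 526), Mrgprd neurons (453 and 386), Mrgpra3 neurons (64 and 65), Tafa4 neurons (183 and 105) and Trpm8 neurons (20 and 29). The Tafa4 gate was meant for C-low-threshold mechanoreceptors, and its defining marker Th was near 0 (4.44 and 4.37 CPM) while Zfp521 was at 99.5 and 96.1 CPM, so the gate is called by Tafa4. Dhh was also read in Tafa4 neurons, at 165 and 122 CPM, where Ptges3 was 323 and 423 CPM.

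**Figure D1:**
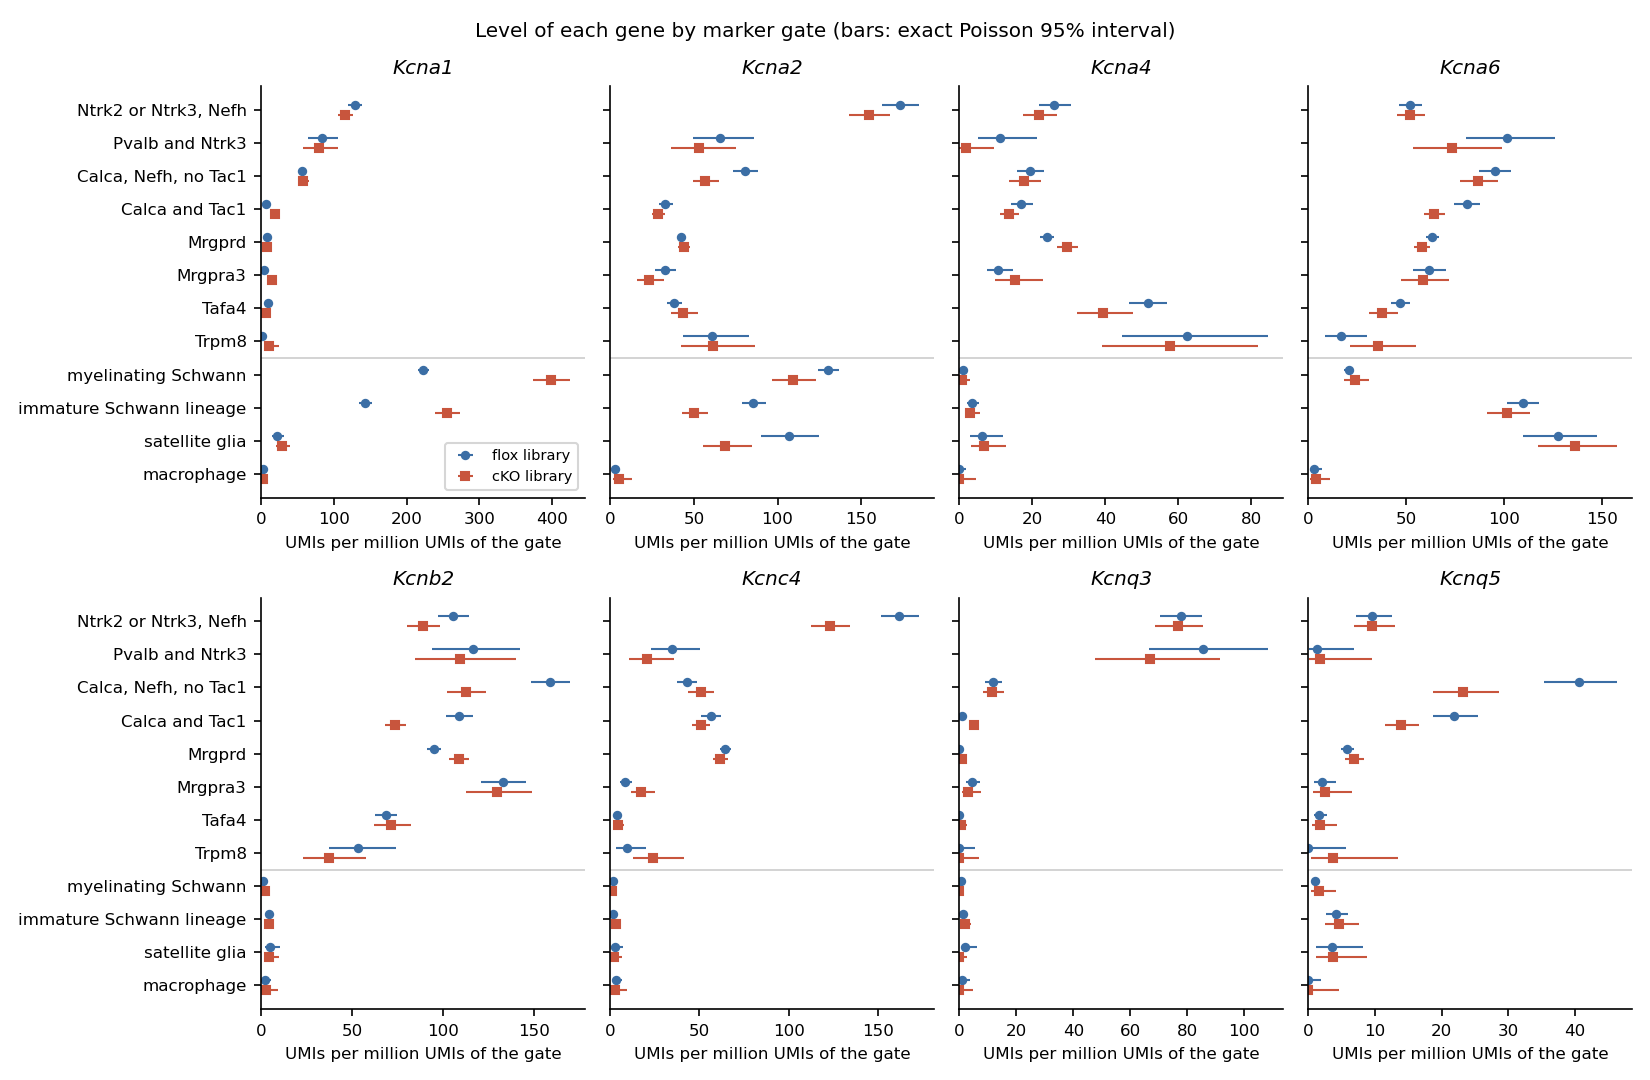
Level of each of the 8 channel genes in each neuron subtype gate and glial gate, in CPM of the gate, for the flox and the cKO library; bars are exact Poisson 95% intervals, which cover counting error only. Kcna1, Kcna2, Kcnc4 and Kcnq3 were high in the A-LTMR-like gate in both libraries, and only Kcna1, Kcna2 and Kcna6 were above 10 CPM in Schwann cells or satellite glia.

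Across the 8 subtype gates, a gene passed the size rule where its level was at least 1 log2 unit above or below that of the other subtype-gated neurons, in the same direction in both libraries. The rule was passed by 26 of the 64 pairs of gene and gate, 9 higher and 17 lower. Of all genes tested, between 7.77% (Calca neurofilament gate) and 19% (Trpm8 gate) passed the rule, depending on the gate. Kcnb2 and Kcna6 passed the rule in no gate at the main settings, but both came close in Trpm8 neurons. There the log2 values in flox and cKO were -0.96 and -1.38 for Kcnb2 and -1.98 and -0.78 for Kcna6. With markers at 2 times the threshold both passed there, and Kcnb2 also did with doublets kept. The other 6 genes each passed the rule in at least 1 gate at the main settings. Every value below is a level in CPM, and levels are compared between gates for 1 gene at a time, not between genes.

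Kcna1 encodes Kv1.1, a low-threshold delayed rectifier. It was at 129 CPM (120 to 139) in flox and 115 (105 to 126) in cKO A-LTMR-like neurons. It was at 83 and 78.8 CPM in proprioceptor-like neurons and at 56.5 and 57.2 CPM in Calca neurofilament neurons. The 3 neurofilament gates therefore led in both libraries, and in flox the intervals of these 3 neighbours in the order did not overlap. In the other 5 gates Kcna1 was far lower. It was at 7.59 and 8.32 CPM in Mrgprd neurons, 8.88 and 6.55 in Tafa4 neurons, 6.79 and 18.3 in Calca and Tac1 neurons, 4.34 and 14 in Mrgpra3 neurons, and 1.52 and 11.2 in Trpm8 neurons. In flox these 5 levels overlapped from each to the next.

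Glial RNA was also read in neuron droplets. Sox10, a glial transcription factor, was read in neurons at 3.72% (flox) and 4.75% (cKO) of its level in glia, and Kcna1 at that share of its own glial level would be 6.08 and 10.5 CPM. In Calca and Tac1 neurons the same calculation gave 14.7 and 15.1 CPM, beside 6.79 and 18.3 measured. In Mrgpra3 neurons it gave 6.2 and 10.4 CPM, beside 4.34 and 14 measured. In A-LTMR-like neurons it gave 5.17 and 9.63 CPM, beside 129 and 115 measured. In proprioceptor-like neurons it gave 20.1 and 3.73 CPM, beside 83 and 78.8 measured. The calculation assumes that Kcna1 and Sox10 enter neuron droplets at 1 share. It gave more than was measured in flox Calca and Tac1 and flox Mrgpra3 neurons. The same held in flox Trpm8 neurons (7.8 beside 1.52 CPM) and cKO Tafa4 neurons (8.33 beside 6.55 CPM). The level in A-LTMR-like neurons was at least 10 times the calculated amount in both libraries. The levels in Calca and Tac1 and in Mrgpra3 neurons were of the same order as the calculated amount.

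Kcna2 encodes Kv1.2, the usual partner of Kv1.1. It too was highest in A-LTMR-like neurons, at 173 CPM (163 to 184) in flox and 155 (143 to 167) in cKO. Its levels in the other gates lay between 32.4 and 80.7 CPM in flox and between 23 and 61.5 CPM in cKO, and in flox each of these overlapped the next in order. Kcna2 was thus read in every subtype, with Mrgprd neurons at 42.5 and 43.9 CPM and Trpm8 neurons at 60.7 and 61.5 CPM. Both Kv1.1 and Kv1.2 UMIs were found in 84 of 90 flox A-LTMR-like cells (93.3%, 86.1 to 97.5) and in 102 of 159 cKO cells (64.2%). These shares follow depth, with medians of 62792.5 and 19028 UMIs per cell in that gate. With every cell thinned to 3000 UMIs, the share of A-LTMR-like cells with Kcna1 was 30% in flox (20.8 to 40.6) and 25.2% in cKO (18.6 to 32.6), whose intervals overlapped, against 1.99 and 1.81% of Mrgprd cells. Macrophages of at least 3000 UMIs, which should lack the gene, gave 0.314 and 0.813%.

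Kcna4 encodes Kv1.4, which gives a fast-inactivating current. It had another order: Trpm8 neurons were highest at 62.3 and 57.7 CPM, followed by Tafa4 neurons at 51.6 and 39.3 CPM. These neighbours overlapped in flox, and the Trpm8 gate held only 20 and 29 cells. A-LTMR-like neurons followed at 25.9 and 21.8 CPM and Mrgprd neurons at 24 and 29.5 CPM. The lowest was the proprioceptor-like gate in cKO, at 1.71 CPM, beside 11.1 CPM in flox.

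Kcna6 encodes Kv1.6, a delayed rectifier of the same family. Its levels ran from 16.7 CPM in Trpm8 neurons to 102 CPM in proprioceptor-like neurons in flox, and from 35.4 to 86.8 CPM in cKO, where the Calca neurofilament gate was highest. A-LTMR-like neurons, the leading gate for Kcna1 and Kcna2, were at 51.9 and 52.1 CPM for Kcna6, below the Calca and Tac1 neurons at 80.8 and 64.2 CPM.

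Kcnb2 encodes Kv2.2, a high-threshold delayed rectifier of the cell body and initial axon. It was read in all 8 gates, from 53.2 CPM (Trpm8) to 159 CPM (Calca neurofilament) in flox and from 37.2 CPM (Trpm8) to 130 CPM (Mrgpra3) in cKO. Neurons held 96.5% of its UMIs in flox and 98.1% in cKO. In the Schwann and satellite glia gates it was at 1.18 to 4.88 CPM, close to the 1.27 to 3.01 CPM that free neuronal RNA at the share seen for Prph, the neuronal peripherin gene, would give.

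Kcnc4 encodes Kv3.4, a fast-inactivating high-threshold channel. It was highest in A-LTMR-like neurons, at 162 and 123 CPM. Mrgprd neurons followed at 64.4 and 61.8 CPM, with Calca and Tac1 neurons at 56.2 and 50.6 CPM. It was low in 3 gates: Tafa4 neurons at 3.92 and 4.37 CPM, Mrgpra3 neurons at 8.4 and 17.2 CPM, and Trpm8 neurons at 9.11 and 24.2 CPM. The Tafa4 gate was the lowest in both libraries.

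Kcnq3 encodes Kv7.3, a subunit of the classical M-channel. It was read mainly in the neurofilament gates. It was at 77.6 (70.5 to 85.3) and 76.7 (68.6 to 85.6) CPM in A-LTMR-like neurons and at 85.4 and 66.8 CPM in proprioceptor-like neurons, and the intervals of these gates overlapped. Calca neurofilament neurons followed at 11.7 and 11.6 CPM. The nociceptor gates were close to 0: 0.0408 and 0.963 CPM in Mrgprd neurons, which is 1 UMI in 453 flox cells and 14 UMIs in 386 cKO cells, and 0.799 and 5.02 CPM in Calca and Tac1 neurons (6 and 42 UMIs). Tafa4 neurons held 0 and 2 UMIs. Trpm8 neurons held none in either library, where 3 UMIs would be 4.56 and 5.59 CPM.

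Kcnq5 encodes Kv7.5, the other M-channel subunit of the 8. It was highest where Kcnq3 was not: Calca neurofilament neurons at 40.5 and 23.2 CPM, then Calca and Tac1 neurons at 21.8 and 13.9 CPM. A-LTMR-like neurons followed at 9.59 and 9.56 CPM and Mrgprd neurons at 5.8 and 6.81 CPM. The other 4 gates were at 3.72 CPM or less in both libraries. So Kcnq3 led in the proprioceptor-like and A-LTMR-like gates and Kcnq5 in both Calca gates.

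In log2 units against all other subtype-gated neurons, 4 of the 8 genes passed the rule in A-LTMR-like neurons, where 15.1% of all genes tested did. The values for flox and cKO were 3.21 and 2.67 for Kcna1, 1.96 and 1.92 for Kcna2, 1.80 and 1.33 for Kcnc4, and 4.65 and 4.08 for Kcnq3, all higher. In proprioceptor-like neurons 4 of 8 passed (17.7% of all genes), with Kcna1 (1.75 and 1.46) and Kcnq3 (3.16 and 2.48) higher, and Kcna4 (-1.24 and -3.82, from 9 and 1 UMIs) and Kcnq5 (-3.14 and -2.53, from 1 UMI in each library) lower. In Calca neurofilament neurons 2 of 8 passed (7.77% of all genes), Kcna1 (1.35 and 1.13) and Kcnq5 (2.42 and 1.50), both higher. All 3 neurofilament gates thus stood above the rest for Kcna1. A stricter marker threshold, 2 times as high, ended the calls of Kcna1 and Kcna4 in proprioceptor-like and of Kcna1 in Calca neurofilament neurons. It added calls of Kcna1 and Kcna2 in Calca and Tac1 neurons and of Kcna2 in Mrgpra3 neurons. Kcna6 and Kcnb2 in Trpm8 neurons were added too.

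In the thin-fibre gates most genes that passed were lower. The neurons they were set against include the A-LTMR-like gate. That gate held 437 and 321 Kcnq3 UMIs (flox and cKO), beside 155 and 146 in all other subtype gates. For Kcna1 it held 726 and 483, beside 696 and 583. The lower calls of these 2 genes are therefore not independent of their higher calls in A-LTMR-like neurons. Mrgprd neurons passed for 2 of 8 (18% of all genes), Kcna1 (-2.38 in both libraries) and Kcnq3 (-8.86 and -4.43, from the 1 and 14 UMIs above). Mrgpra3 neurons passed for 4 of 8 (9.98% of all genes), with Kcna1, Kcnc4, Kcnq3 and Kcnq5 lower by ratios of -1.10 to -2.87. Tafa4 neurons passed for 4 of 8 (12.6% of all genes), the same 4 genes, with Kcnc4 at -4.09 and -3.83 and Kcnq5 at -2.97 and -2.52. Calca and Tac1 neurons passed for 1 of 8 (8.93% of all genes), Kcnq3 at -3.93 and -1.60. Trpm8 neurons passed for 5 of 8 (19% of all genes): Kcna4 was higher (1.28 and 1.31) and Kcna1, Kcnc4, Kcnq3 and Kcnq5 were lower. In that gate Kcnq3 had 0 UMIs in both libraries and Kcnq5 had 0 and 2. In Mrgprd and in Calca and Tac1 neurons the share of the 8 genes was close to that of all genes.

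Within the A-LTMR-like gate, cells with Ntrk2 alone (56 flox and 88 cKO) were set beside cells with Ntrk3 alone (28 and 67). Kcna4 was at 33.9 and 27.4 CPM with Ntrk2 and at 10.2 and 10.4 CPM with Ntrk3, from 19 and 15 UMIs in the latter. Kcnq3 was at 86.8 and 92.8 against 42.8 and 47.3 CPM, and Kcna2 at 190 and 169 against 139 and 131 CPM. These 3 genes were higher with Ntrk2, with no overlap of intervals in either library. Kcnb2 was higher with Ntrk3, at 81.4 and 79.2 against 153 and 110 CPM, again with no overlap. Kcna1 was at 109 and 108 against 174 and 132 CPM, and its intervals overlapped in cKO. For Kcna6 and Kcnq5 they overlapped in both libraries, and for Kcnc4 too, at 155 and 125 against 177 and 126 CPM.

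**Figure D2:**
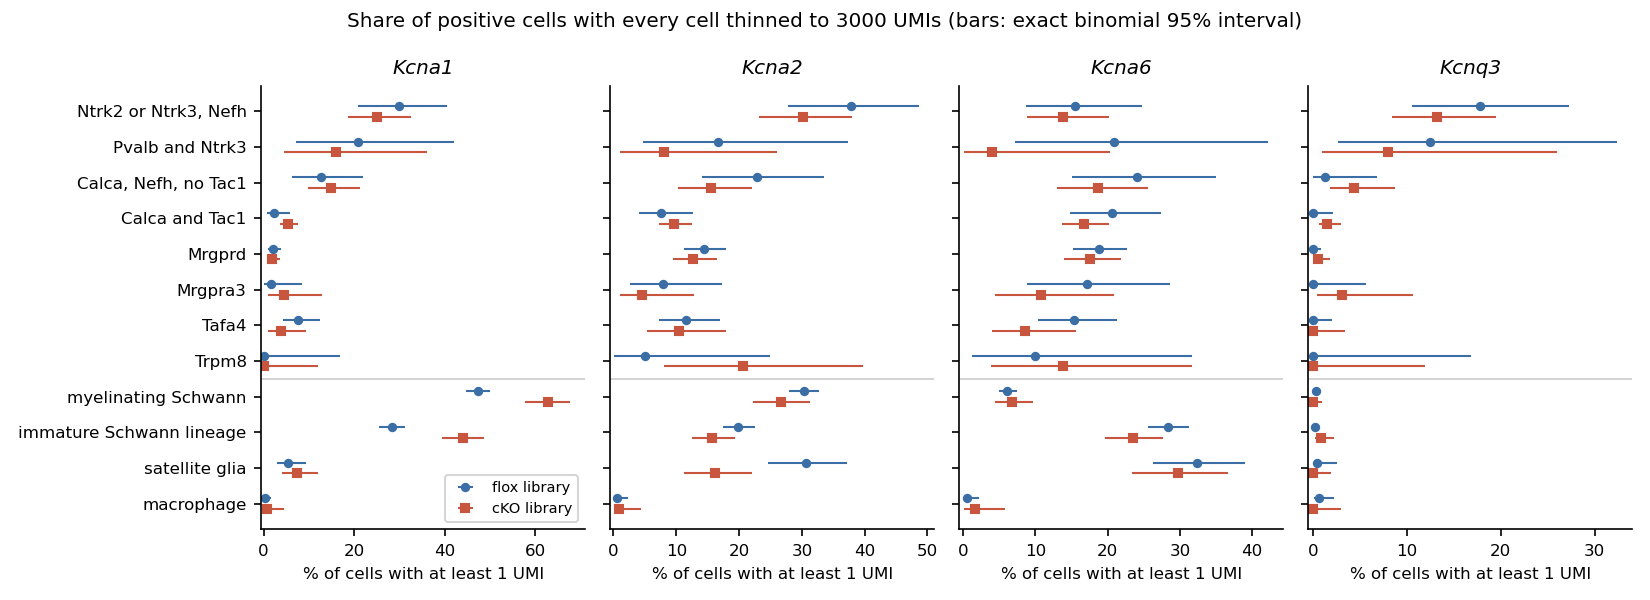
Percent of cells with at least 1 UMI of each gene after thinning to 3000 UMIs, by gate and library. Cells with fewer than 3000 UMIs are left out. Bars are Clopper-Pearson 95% intervals. Kcna1 was found in 47.4% of flox and 62.8% of cKO myelinating Schwann cells, and the macrophage gate shows the level in cells that should lack these genes.

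Outside the neurons, Kcna1, Kcna2 and Kcna6 were read in Schwann cells and satellite glia, and the other 5 were at 6.74 CPM or less in these gates. Kcnq3 was read in flox oligodendrocytes, at 24.7 CPM. Kcna1 was higher in myelinating Schwann cells, at 223 CPM (215 to 232) in flox and 399 (375 to 425) in cKO, than in any neuron subtype. The immature Schwann lineage held 143 (134 to 153) and 256 (239 to 274) CPM and satellite glia 21.6 and 28.4 CPM. Macrophages held 2.08 and 2.52 CPM. Free neuronal RNA, at the share seen for Prph, would give these glia 0.31 to 0.97 CPM of Kcna1. Neurons held 27.6% of all Kcna1 UMIs in flox and 39.1% in cKO, and myelinating Schwann cells held 46.5% and 26.3%. More than 60% of the Kcna1 UMIs of either ganglion library therefore came from cells outside the neuron gate.

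Kcna2 was at 130 CPM (124 to 137) in flox and 109 (96.9 to 123) in cKO myelinating Schwann cells. It was at 85.4 and 50.1 CPM in the immature lineage and at 107 (90.4 to 125) and 68.9 (55.5 to 84.4) CPM in satellite glia. Kcna6 ran the other way along the Schwann lineage, at 110 and 102 CPM in the immature lineage and 20.7 and 24.1 CPM in myelinating Schwann cells. Satellite glia had the highest Kcna6 level of the glial gates, at 128 (110 to 147) and 136 (117 to 157) CPM, although in flox this overlapped the immature lineage. Of these 3 glial gates, Kcna1 and Kcna2 were thus highest in myelinating Schwann cells and Kcna6 in satellite glia. For Kcna2 the intervals of myelinating Schwann cells and satellite glia overlapped in flox. Cycling glia also held these genes, with Kcna1 at 64.1 and 79.2 CPM, Kcna2 at 62.5 and 45.9 CPM, and Kcna6 at 98.2 and 101 CPM. Kcna4 was at 6.27 and 6.74 CPM in satellite glia, from 9 UMIs in each library.

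**Figure D3:**
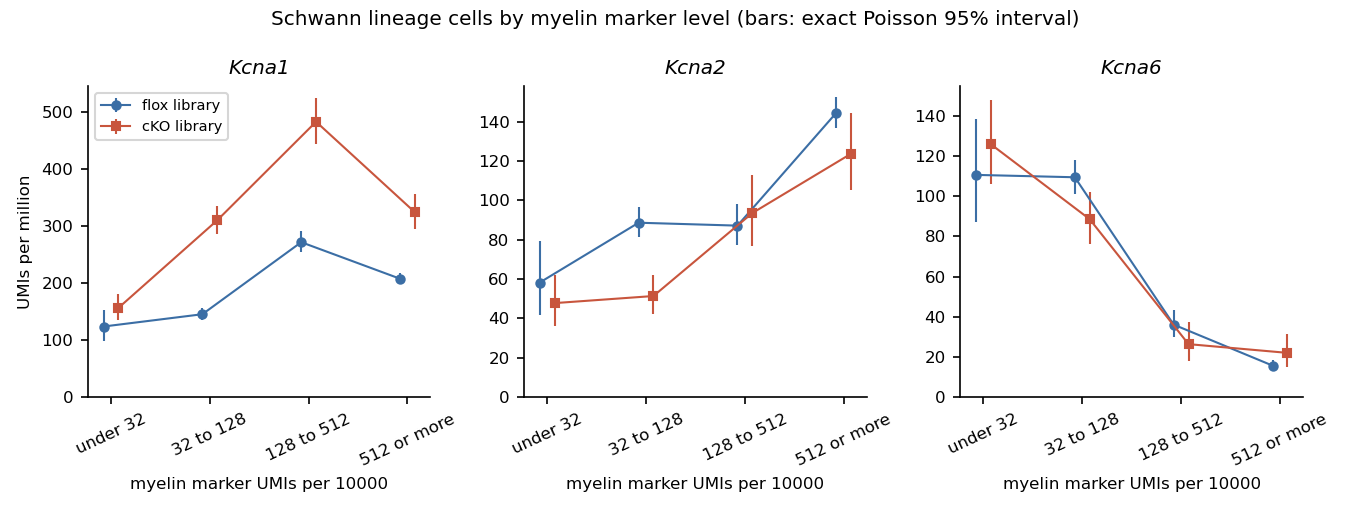
Levels of Kcna1, Kcna2 and Kcna6 in CPM across Schwann cells ordered into 4 classes by their share of myelin marker UMIs, for flox and cKO; bars are exact Poisson 95% intervals. Kcna1 in cKO was above flox in the upper 3 classes, and Kcna6 was lower in the upper classes in both libraries.

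The Schwann gates of the 2 libraries differed in myelin. The summed myelin markers were at 121501 CPM in flox and 60351 CPM in cKO myelinating Schwann cells. Schwann cells were therefore also split by myelin marker UMIs per 10000 UMIs: under 32, 32 to 128, 128 to 512, and 512 or more. In flox, Kcna1 was at 124, 145, 272 and 208 CPM in these classes, and in cKO at 156, 310, 483 and 324 CPM. In both libraries it was highest in the class of 128 to 512. Kcna6 was at 111, 109, 36.1 and 15.7 CPM in flox and at 126, 88.6, 26.4 and 22 CPM in cKO, so it was low where myelin was high. Kcna2 was at 58.2, 88.6, 87.1 and 145 CPM in flox and 47.8, 51.4, 93.5 and 124 CPM in cKO, highest in the uppermost class.

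Between genotypes, a gene was measured in a gate if it had 50 UMIs over both libraries, and it passed the size rule where the ratio of cKO over flox was at least 0.5 log2 units either way, whatever its interval. In myelinating Schwann cells 1 of 3 measured genes passed, where 30% of all genes tested did, so this share is near the background. Kcna1, at 223 and 399 CPM, was higher in cKO by 0.84 (0.73 to 0.94). Kcna2 had a ratio of -0.25 (-0.44 to -0.07) and Kcna6 of 0.22 (-0.21 to 0.63). The median of all genes was 0.01. The Kcna1 value ran from 0.62 to 0.86 over 8 alternatives. After thinning to 3000 UMIs the share of cells with Kcna1 was 47.4% in flox (44.7 to 50) and 62.8% in cKO (57.8 to 67.6). That share leaves out the shallower cells, 82 of 1503 in flox and 127 of 514 in cKO. Unthinned shares, over all cells of the gate, were 72.3 and 66.9%, with flox the deeper library.

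The Kcna1 ratio of cKO over flox was also taken within the myelin classes. It was 0.34 (-0.04 to 0.73) in the lowest myelin class, where the interval held 0, and 1.09 (0.94 to 1.24), 0.83 (0.67 to 0.99) and 0.64 (0.49 to 0.80) in the next 3. With myelin UMIs taken out of the total, the value in the uppermost class was 0.54. That class has no upper bound, and myelin markers were 15.3% of its UMIs in flox and 9.22% in cKO. Kcna2 had ratios of -0.29, -0.79, 0.10 and -0.22 in the same classes. The part of myelin content in the values over the whole gate was not tested.

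In the immature Schwann lineage 2 of 3 measured genes passed (28.5% of all genes). Kcna1, at 143 and 256 CPM, was higher in cKO by 0.84 (0.70 to 0.98). Kcna2, at 85.4 and 50.1 CPM, was lower, with a ratio of -0.77 (-1.03 to -0.52). These partners of 1 channel thus differed in opposite directions in this gate. Kcna6 had a ratio of -0.11. Cycling glia gave 0.30 for Kcna1, -0.45 for Kcna2 and 0.05 for Kcna6.

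In satellite glia 1 of 3 measured genes passed (26.6% of all genes). Kcna2, at 107 and 68.9 CPM, was lower in cKO, with a ratio of -0.63 (-1.02 to -0.25) beside a median of -0.13 for all genes. With TMM scaling, which moved the median of all genes by 0.17, Kcna2 was at -0.46 and no longer passed, and Kcna1 at 0.57 did. By the mean of each cell's CPM both passed, with Kcna1 at 0.50 and Kcna2 at -0.77 (29.8% of all genes). The thinned share of cells with Kcna2 was 30.6% (24.6 to 37.2) in flox and 16.1% (11.2 to 22.1) in cKO, with no overlap. Kcna1 had a ratio of 0.40 (-0.33 to 1.13) and Kcna6 of 0.09.

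**Figure D4:**
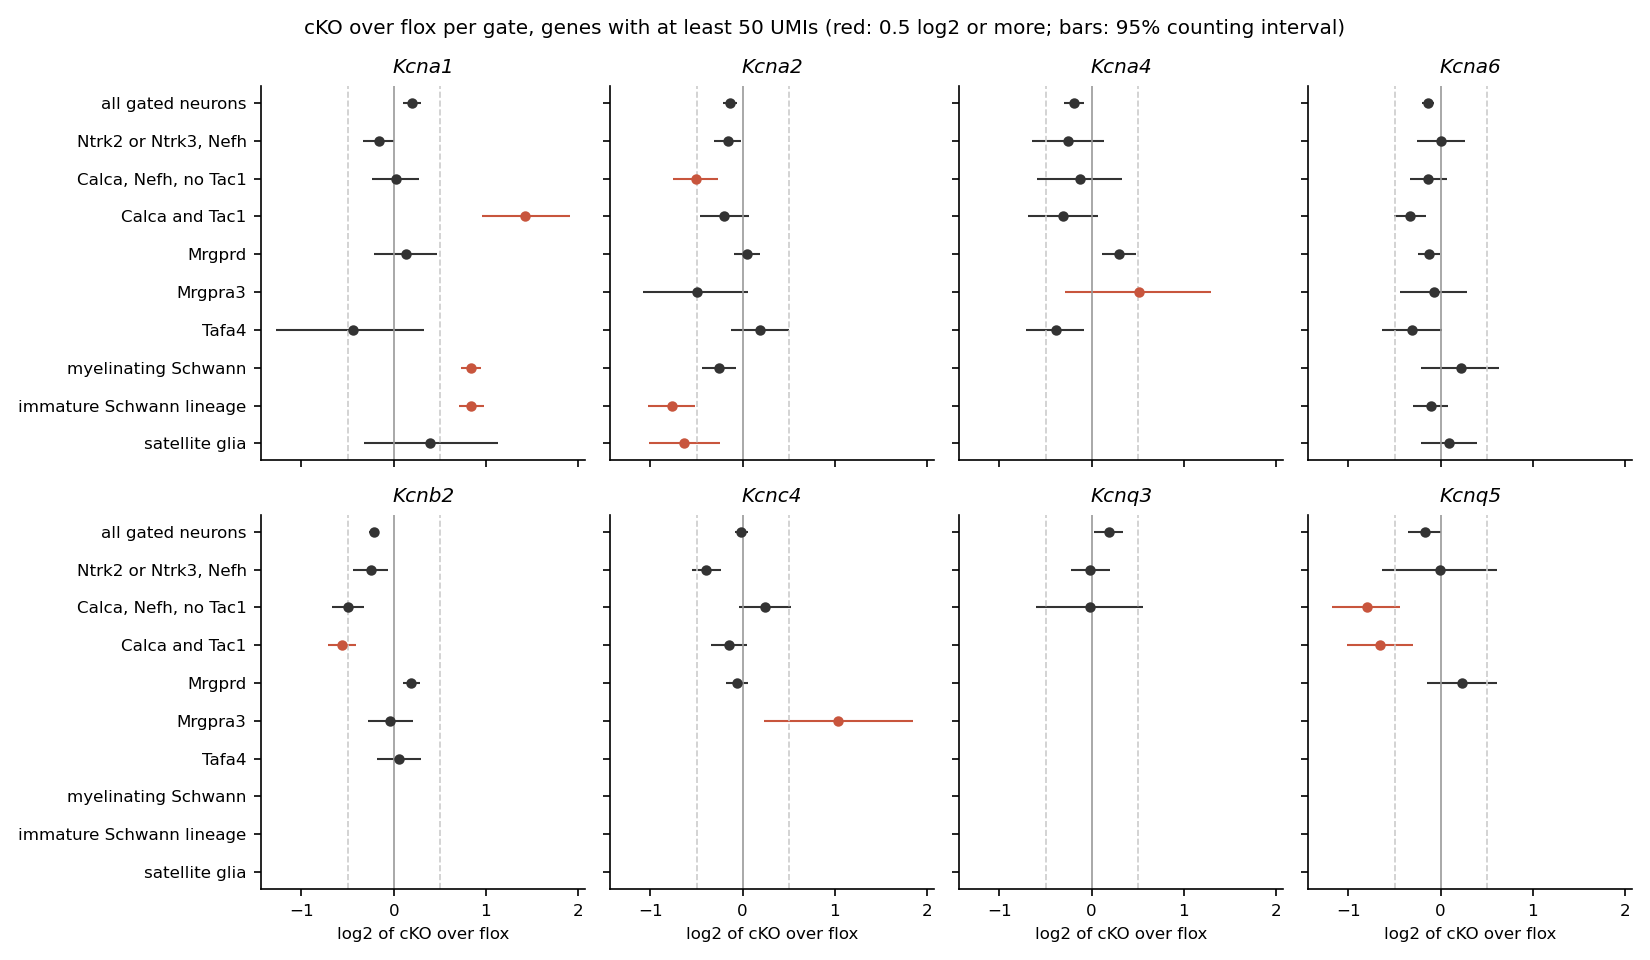
Log2 ratio of cKO over flox for each measured channel gene in neurons, the neuron subtype gates and the glial gates, with conditional binomial 95% intervals that cover counting error only; the dashed lines mark the size rule of 0.5. Kcna1 stands at 0.84 in both Schwann gates and all 8 genes lie within 0.5 of 0 in neurons as a whole.

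In neurons none of the 8 genes passed (13.9% of all genes). The level in flox and cKO was 24.9 and 28.5 CPM for Kcna1, 54.6 and 49.7 for Kcna2, 25.4 and 22.3 for Kcna4, 66 and 60 for Kcna6, 103 and 88.8 for Kcnb2, 54.9 and 54.3 for Kcnc4, 11 and 12.5 for Kcnq3, and 9.81 and 8.69 for Kcnq5. The ratios ran from -0.22 for Kcnb2 (-0.27 to -0.16) to 0.20 for Kcna1 (0.10 to 0.30), beside a median of -0.02 for all genes. With glial RNA taken out at the Sox10 share, the Kcna1 ratio was -0.06.

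That count of 0 rests on the summed UMIs, to which deep cells give most. By the mean of each cell's CPM, 3 of 8 passed (26.4% of all genes), all lower in cKO: Kcna2 at -0.53, Kcna4 at -0.59 and Kcnb2 at -0.59. With cells thinned to 3000 UMIs and shallower ones left out (105 in flox and 592 in cKO), 4 of 8 passed (20.8% of all genes). Of these, Kcna2 (-0.53), Kcna4 (-0.55) and Kcnb2 (-0.75) were lower, and Kcnq3 (0.68) was higher. The median neuron had 46902.5 UMIs in flox and 9035 in cKO, and 14.7% of flox and 52.6% of cKO neurons had under 10000.

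Split by depth, the neurons gave different ratios. In neurons of 30000 UMIs or more (1086 flox and 621 cKO cells) the ratios of cKO over flox lay between -0.06 for Kcna6 and 0.44 for Kcnq3, with Kcna2 at 0.17 and Kcnb2 at 0.11. In neurons of 10000 to 30000 UMIs (221 and 858 cells) Kcna2 and Kcna4 were at -0.88, Kcnb2 at -0.72 and Kcna6 at -0.67. Kcna1 was at -0.66 there, beside 0.42 in the deepest class. Kcnq5 was at -0.48, Kcnc4 at -0.25 and Kcnq3 at 0.13. In neurons of 5000 to 10000 UMIs (80 and 661 cells) Kcna6 was at -1.70, Kcnq5 at -1.52, Kcnb2 at -1.45, Kcna4 at -1.17 and Kcna2 at -0.99. Kcna2 levels in the 4 depth classes, from shallow to deep, were 85.2, 72.3, 71.2 and 53.1 CPM in flox and 28.2, 36.3, 38.7 and 59.8 CPM in cKO. The order along depth was thus opposite in the 2 libraries. Subtype makeup also differed between the libraries. Of neurons with at least 5000 UMIs, Mrgprd neurons were 32.7% in flox and 18% in cKO, and Calca and Tac1 neurons 12.3 and 24.6%. Sox10 was at 29.6 CPM in flox and 16.7 CPM in cKO neurons of 5000 to 10000 UMIs. The part of depth, makeup or glial RNA in these ratios was not tested.

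**Figure D5:**
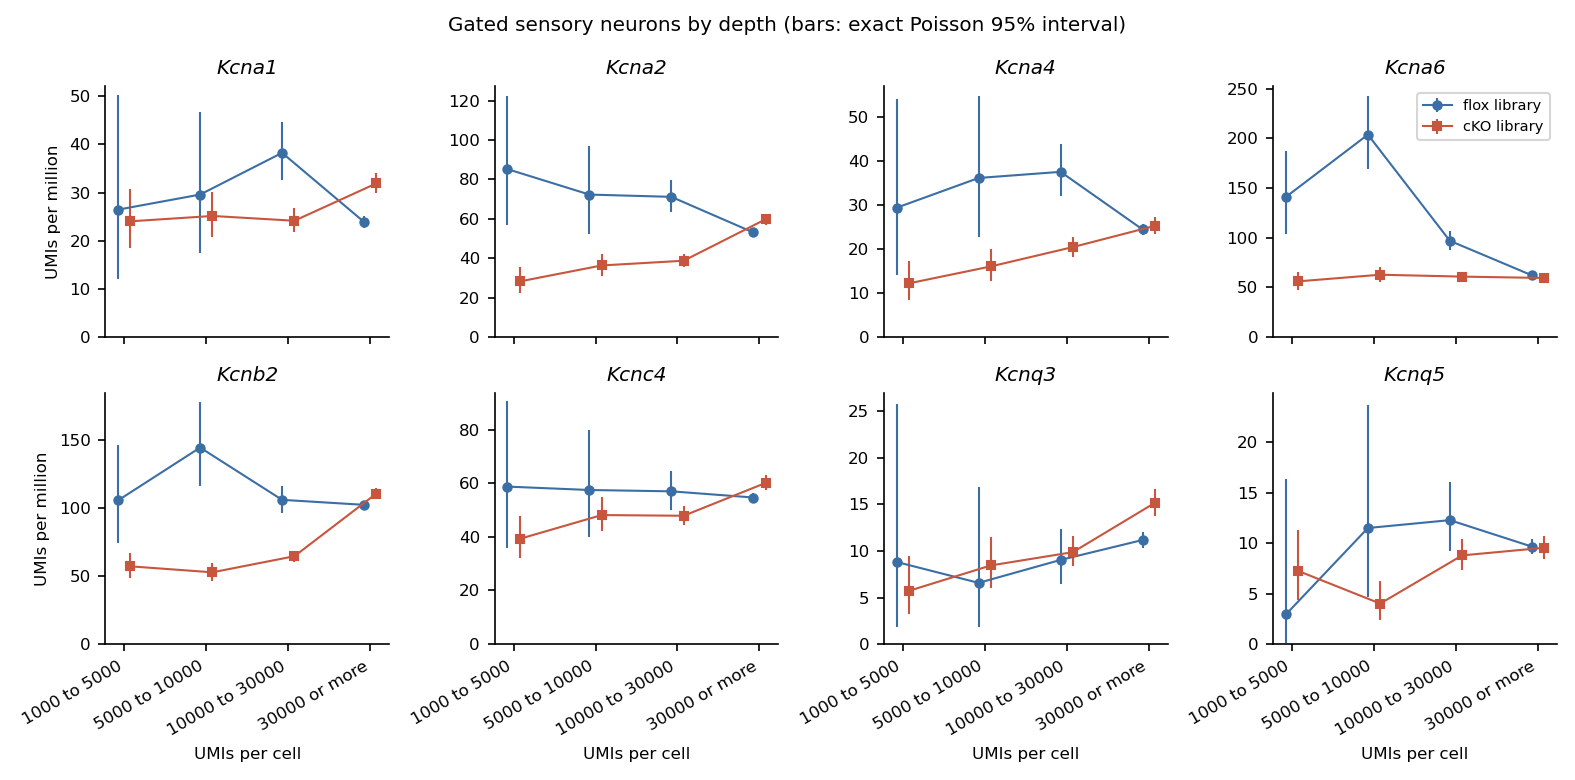
Levels of the 8 channel genes in CPM in neurons of 4 classes of UMIs per cell, for flox and cKO; bars are exact Poisson 95% intervals. In the deepest class Kcna1 (23.9 and 31.9 CPM) and Kcnq3 (11.2 and 15.2 CPM) are higher in cKO. Kcna2, Kcna4, Kcna6, Kcnb2 and Kcnq5 are lower in cKO in the class of 5000 to 10000 UMIs.

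Within the subtypes, none of 8 measured genes passed in A-LTMR-like neurons (11.9% of all genes), where the lowest ratio was -0.40 for Kcnc4. None of 7 passed in Mrgprd neurons (16.9%) and none of 5 in Tafa4 neurons (15.3%). Kcnq3, with too few UMIs to be measured in Mrgprd neurons (1 and 14), had a ratio of 4.56 (1.84 to 9.96). Of the 7 measured in Calca and Tac1 neurons 3 passed (20.1%). There Kcna1 (6.79 and 18.3 CPM) was higher at 1.43 (0.96 to 1.91), where the Sox10 share gave 14.7 and 15.1 CPM. Kcnb2 (109 and 73.7 CPM) was lower at -0.56 (-0.72 to -0.41) and Kcnq5 lower at -0.66 (-1.01 to -0.30). Kcnq3, with too few UMIs to be measured there (6 and 42), had a ratio of 2.65 (1.41 to 4.18). In that gate Nefh was at 113 and 214 CPM, Mrgprd at 9.99 and 23.2 CPM, and Calca at 9376 and 4332 CPM. These marker levels differed between the libraries, and their part in the ratios of this gate was not tested.

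In Calca neurofilament neurons 2 of 8 passed (17% of all genes), both lower in cKO. Kcna2, at 80.7 and 56.7 CPM, had a ratio of -0.51 (-0.75 to -0.27) and Kcnq5, at 40.5 and 23.2 CPM, of -0.80 (-1.18 to -0.44). Calca itself was at 7463 and 2985 CPM in this gate and Nefh at 1202 and 942 CPM. Kcnq5, the M-channel subunit that led in both Calca gates, was thus lower in cKO in each of them. Depth differed there, with medians of 70417 (flox) and 16489 (cKO) UMIs in Calca neurofilament and 43436.5 and 10873 in Calca and Tac1 neurons. Over all gated neurons the Kcnq5 ratio was -1.52 (-2.83 to -0.03) at 5000 to 10000 UMIs and -0.02 (-0.23 to 0.19) at 30000 or more. The part of depth in the Kcnq5 ratios of the Calca gates was not tested. In Mrgpra3 neurons 2 of 5 measured genes passed (19.9% of all genes), both higher. Kcnc4, at 8.4 and 17.2 CPM, had a ratio of 1.04 (0.23 to 1.85), from 29 UMIs in flox and 27 in cKO. Kcna4, at 10.7 and 15.3 CPM, had a ratio of 0.52 with an interval that held 0 (-0.29 to 1.30). With 5 to 8 genes measured per gate, a share that passed is a small count, and none is read against that of all genes. The proprioceptor-like and Trpm8 gates, with under 30 cells in each library, were compared no further.

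The other genes of the pathway were a list of 44 further Kv subunits, auxiliary subunits and partners that hold Kv1 channels beside the node, of which 43 were found. In neurons 33 were measured and 1 passed, a smaller share than the 13.9% of all genes, with a median of -0.07 beside -0.02 for all genes. That gene was Kcnv1, a silent subunit that joins Kv2 channels, at 13.8 and 8.56 CPM (-0.69). Cntnap2 (Caspr2), which holds Kv1 channels at the juxtaparanode, was at 50.5 and 41.2 CPM (-0.29). The highest ratio was 0.34 for Kcng3, a silent Kv subunit at 0.91 and 1.16 CPM. The list therefore gave ratios close to 0 in the summed neurons, but not in every subtype gate. In Calca and Tac1 neurons 27 were measured, with 2 higher and 8 lower (20.1% of all genes passed), and a median of -0.30. In Calca neurofilament neurons 26 were measured, with 2 higher and 7 lower (17%), and a median of -0.15. Mrgprd neurons went the other way, with 4 higher and 0 lower of 26 (16.9%), and a median of 0.20.

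In myelinating Schwann cells 12 of the list were measured, and 3 were higher and 2 lower (30% of all genes passed), with a median of 0.25 beside 0.01 for all genes. Among the higher was Kcnab2, an auxiliary beta subunit of Kv1 channels, at 4.78 and 8.82 CPM (0.88). Lgi3, a secreted ligand of the ADAM22 family, was lowest, at 4.94 and 0.80 CPM (-2.62, from 63 and 2 UMIs), followed by Adam22, its receptor, at 7.68 and 5.21 CPM (-0.56). In satellite glia 7 were measured, and 1 was higher and 2 were lower (26.6% of all genes passed), with a median of -0.23 beside -0.13 for all genes. Adam23, a receptor of the same family, was at 29.3 and 62.9 CPM (1.10), and Ank2, a membrane scaffold, at 182 and 118 CPM (-0.62). Epb41l3, the protein 4.1B gene, whose product anchors Caspr proteins, was at 70.4 and 49.4 CPM (-0.51), and Dlg4 (PSD-95) had a ratio of -0.13.

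For each channel gene, the genes with the most like pattern were named by Pearson's r of log2(CPM + 10) over 31 points, each 1 gate in 1 library, among 12079 genes. The points share libraries and depth, and r is given as a description. Kcna1 was nearest to Mfap3l (0.867), Epb41l4b (0.85) and Snx16 (0.845), and Kcna2 to Myh14 (0.92), Dst (0.878) and Bicd1 (0.863). Kcna4 was nearest to Gpr61 (0.944), Ctnna2 (0.944) and Prrxl1 (0.943), and Kcna6 to Ncam1 (0.912), Lrrc8b (0.91) and Nlgn3 (0.906). Kcnb2 had the closest likeness of the 8, with Srrm3 (0.989), A2ml1 (0.985) and Jph4 (0.985). Kcnc4 was nearest to A830018L16Rik (0.936), Nrxn3 (0.93) and Amigo1 (0.918). Kcnq3 was nearest to Rasgrf2 (0.913) and Dlg2 (0.893), and Kcnq5 to Bcl11b (0.939), Smr2 (0.928) and Pou4f3 (0.924). Among the 8 themselves, Kcna1 and Kcna2 had an r of 0.779 and Kcna1 and Kcnb2 of -0.04.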

How the data were processed

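The authors deposited 2 10x matrices of raw counts (UMIs per gene and cell barcode), made with Cell Ranger 6.1.2 per the file headers; the submitters' processing notes name Cell Ranger 5.0.1, Scanpy and mm10. Intron counting, use of strand, and removal of free RNA or doublets before deposit are not given in the sources used here. Kcna6, Kcnb2, Kcnq3 and Kcnq5 overlap other genes in the annotation, each at least 1 of them on the opposite strand. Kcnb2 and Kcnq5 also overlap genes on the same strand. The counts of these channel genes are uncertain to that extent.

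The libraries held 132620886 (flox) and 78144437 (cKO) UMIs in 10014 and 9703 barcodes. Cells needed 1000 UMIs and 500 genes, with mitochondrial UMIs of 15% or less, which left 8714 and 8435. Scrublet's own threshold marked 0 and 2 cells, so those scored highest were taken out, 0.8% for every 1000 cells that passed: 607 (6.97%) and 569 (6.75%). Cells were gated on summed marker UMIs per 10000. Subtypes also needed 5000 UMIs per cell and at least 2 UMIs of a marker. Gate thresholds were set from the marker distributions of these data. The members and lists were chosen with earlier results of these data known. Raw counts were summed per gate and library, and given per 1000000 UMIs of the gate (CPM). A library's count of 0 allows up to 3 UMIs. Named genes were the 8 channel genes, the 2 highest and 2 lowest ratios of the list in neurons, myelinating Schwann cells and satellite glia, and the 3 most like genes per channel gene (at least 500 UMIs, gates of at least 30 cells, pseudocount 10 CPM). A few genes that this rule names, and some sequences, are not reported here. No count model was fitted, since there was 1 library per genotype; edgeR gave TMM factors for 1 alternative. Alternatives were other scalings, filters, thinning and gates. Scripts were tested on simulated data. Transcripts were read as their longest reading frame.

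Python 3.11.15, numpy 2.4.6, pandas 2.3.3, scipy 1.17.1, Scanpy 1.11.5, R 4.3.3, edgeR 4.0.16 and matplotlib 3.10.9 were used.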

Additional observations from a re-analysis of the deposited data

Results flagged for a closer look

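Channel UMIs were also read in central glia, which the comparisons did not use. The flox library held 361 cells in an oligodendrocyte gate and 165 in an astrocyte gate, while the cKO library held 2 and 3, so there is no comparison between genotypes. The levels named here were above those in macrophages and endothelial cells, the cells that should lack these genes. Flox oligodendrocytes held Kcna1 at 8.42 CPM, Kcna2 at 50.8 CPM, Kcna6 at 25 CPM and Kcnq3 at 24.7 CPM, where the macrophage and endothelial cells held 1.62, 3.79, 5.68 and 0.541 CPM. Kcnq3 was thus the 1 Kv7 gene of the 8 above that background in either gate, and these cells held 9.3% of its flox UMIs. Flox astrocytes held Kcna1 at 9.32 CPM, Kcna2 at 25.8, Kcna4 at 5.73, Kcna6 at 31.5, Kcnb2 at 10, Kcnc4 at 7.88 and Kcnq3 at 5.73 CPM. In that gate 7 of the 8 genes were above the background cells, the neuronal Kcnb2 and Kcnc4 among them (1.89 CPM each in the background cells). The part of free neuronal RNA in these levels was not tested.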

How the results depend on the processing

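No result changed its direction past the size rule under any alternative. Counts of channel genes that passed moved in 4 cases. In neurons the count was 0 as reported and 3 by the mean of each cell's CPM. It was 4 with cells thinned to 3000 UMIs and shallower ones left out. In myelinating Schwann cells it went from 1 to 4 when every gene with at least 1 UMI was measured. The genes added there were Kcnb2 (15 and 5 UMIs), Kcnc4 (16 and 2) and Kcnq5 (13 and 4), whose intervals all held 0. The share of all genes was not taken at that rule. In satellite glia the count was 2 by the mean of each cell's CPM. The other 26 counts stayed within 1.5 times, although the 1 gene that passed in satellite glia was another one under TMM scaling. Over 9 alternatives in neurons Kcna2 ran from -0.53 to -0.05, Kcnb2 from -0.75 to -0.12 and Kcnq3 from 0.09 to 0.68. Over its alternatives Kcna2 ran from -1.03 to -0.46 in satellite glia. Kcna1 in satellite glia, which did not pass, was at -0.35 when thinned. Settings without myelin UMIs, less glial RNA, and those of the subtype gates were chosen after seeing the data. Of the 26 subtype calls, 26 remained with doublets kept, with at least 10000 UMIs per neuron and with at most 10% mitochondrial UMIs, and 23 with markers at 2 times the threshold. Calls were also gained, which made 27 in all with doublets kept and 28 with markers at 2 times the threshold. No paired analysis was possible because each genotype had 1 library. The Trpm8 and proprioceptor-like gates hold 20 to 29 cells in each library, which limits the precision of every gene there.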
